A study of Homo sapiens with 6 samples.

Results

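The long arm of chromosome 5 ends in a segment whose genes were, almost without exception, higher in DNAJC12 knockout SH-SY5Y cells than in the unmodified cells. The 60 genes described here were taken from that segment, out of 20668 genes in the deposited gene table. Each one starts between the start of CCNG1 and the end of the chromosome, at chr5:163437569-181324685 in GRCh38, a stretch of 17.9 Mb in the 5q34-q35 region. The table holds 137 genes that start there, so 77 neighbours that are no members serve as a reference from the same segment. The 60 genes were chosen on this same comparison of genotypes, with its outcome known. Their counts, medians and directions below are therefore descriptions, no p-value is given for any of them, and they support nothing about the segment.

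The data were 6 RNA-seq libraries of SH-SY5Y, an established human neuroblastoma cell line of sympathetic lineage. One group of 3 libraries came from WT cells, and the other 3 came from cells carrying a CRISPR/Cas9 knockout of DNAJC12, which encodes a J-domain co-chaperone. Both groups had the treatment label none. The labels do not say whether the 3 libraries of a genotype were separate cultures, nor whether the knockout cells were 1 clone, so the spread between libraries may be technical. RNA alone was sequenced, and DNA copy number was not measured in the files used here.

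Neuroblastoma lines often carry gains and losses of large chromosome segments, and neighbouring genes can share a level without sharing a function. The genes at the end of the long arm of chromosome 5 have many functions. They include the ribosomal scaffold RACK1 and the nucleolar chaperone NPM1, the endoplasmic reticulum lectin CANX, the receptor kinase FGFR4, the guidance ligand SLIT3 with the netrin receptor UNC5A, the synaptic proteins CPLX2 and SNCB, and the procollagen protease ADAMTS2.

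Library totals ran from 19321842 to 21869659 counts. DNAJC12 itself, at chr10:67796665-67838166, measured 23.0, 21.4 and 20.0 CPM in WT and 5.91, 5.87 and 4.85 CPM in the knockout, a log2 fold change of -1.95 ± 0.13. All 8 adrenergic neuroblastoma markers had counts, and their summed level ran from 2805 to 2907 CPM in WT and from 2586 to 2711 CPM in the knockout, so both groups carried the profile of the labelled line. Among markers of other cells, the Schwann cell list (3 of 4 used here) summed to 5.42 to 6.19 CPM in WT and 6.11 to 6.47 CPM in the knockout, and the leukocyte list (3 of 4) to 10.5 to 14.0 and 18.0 to 26.4 CPM, nearly all of it CD68. The epithelial list summed to 9.54 to 10.4 and 68.4 to 76.0 CPM, nearly all of it KRT18, with EPCAM and CDH1 at or under 1.78 CPM in every library. Their part in the results below was not tested.

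Values are CPM (counts scaled to a common library total, after TMM), and differences are log2 fold changes of knockout over WT ± SE from edgeR's fit with 3 libraries per group. Of the 60 members, 59 passed the filter on low counts, and FGF18 did not. For 5 of the 59, namely TENM2, HRH2, SNCB, COL23A1 and ADAMTS2, no WT library reached the filter level of 0.501 CPM. They passed through the knockout libraries alone and so had to differ. In edgeR's quasi-likelihood test 54 members were called higher at an adjusted p under 0.05, against 14.5% of the 16403 genes tested. The count was 51 to 54 with any 1 library left out. A single member, FGFR4, was called lower, against 11.5% of all genes. For 57 members every knockout library lay above every WT library, against 21.7% of all genes, the exceptions being MSX2 and FGFR4. The same shares of all genes stand beside the calls and the lack of overlap given by role below. Since the choice of members used this contrast, nothing is read from any of them. In bulk RNA, a change in the make-up of the culture and a change in RNA per cell cannot be told apart.

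The common difference was taken from location alone, over members and neighbours together. Of the 118 segment genes tested, 91 had a mean of at least 4 CPM, and 90 of these were higher in the knockout. Their median log2 fold change was 0.67, which is a ratio of 1.59, with an interquartile range of 0.52 to 0.80. The 53 members in this set had a median of 0.65 and the 38 neighbours a median of 0.75, and all 38 neighbours were above 0. The neighbours are as much a product of where the segment was drawn as the members are. The other 473 genes of chromosome 5 at this level had a median of 0.04, with 57.9% above 0, and the 12384 genes outside the segment had a median of -0.01.

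The shift was alike in all 3 knockout libraries. Each library was compared with WT by the median, over the 91 genes, of log2 CPM minus the mean of the WT libraries (minus the mean of the other WT pair, for a WT library). The WT libraries stood at 0.04, -0.02 and 0.00. The knockout libraries stood at 0.67, 0.65 and 0.66, which correspond to ratios of 1.60, 1.57 and 1.58, and in each of them 90 of the 91 genes were above their WT reference. The groups did not overlap. Over the 53 members among these genes the values were 0.01, 0.00 and 0.00 in WT and 0.60, 0.65 and 0.64 in the knockout. The 60 members together took 0.501%, 0.490% and 0.489% of all counts in WT and 0.775%, 0.748% and 0.760% in the knockout.

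**Figure D1:**
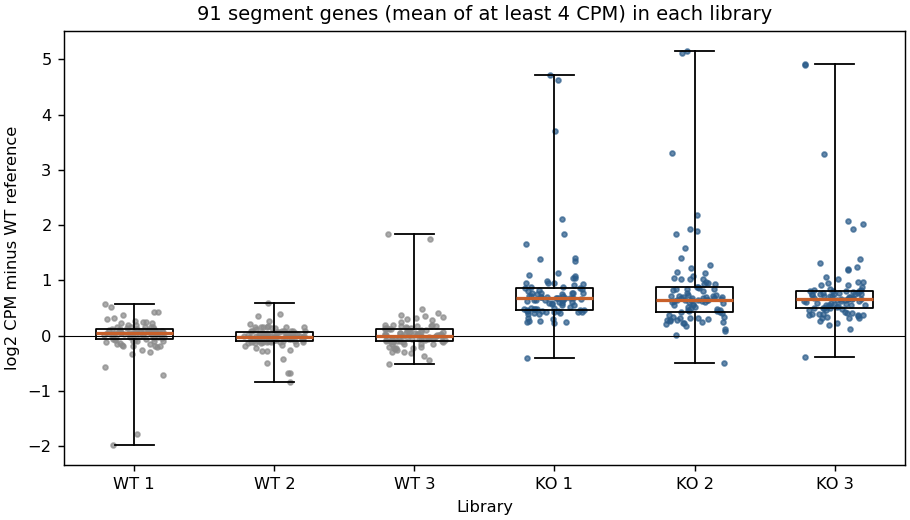
Log2 CPM of 91 segment genes in each library relative to WT (vertical axis, log2 units), with 1 point per gene, the box spanning the interquartile range, the orange line at the median and whiskers reaching the lowest and highest gene. The WT medians are 0.04, -0.02 and 0.00, and the knockout medians are 0.67, 0.65 and 0.66.

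The start of the segment falls in a gap of 3.01 Mb without genes at this level. On the near side of the gap PTTG1, the securin of chromosome separation, had a log2 fold change of -0.20 ± 0.08, with SLU7 at 0.08 ± 0.10, FAM200C at -0.15 ± 0.23, CCNJL at -0.24 ± 0.10 and PWWP2A at 0.05 ± 0.14. On the far side CCNG1, the cyclin whose start defines the segment, stood at 0.54 ± 0.09, followed by NUDCD2 at 0.58 ± 0.09, HMMR at 0.69 ± 0.17, MAT2B at 0.65 ± 0.07 and WWC1 at 0.58 ± 0.11. All 5 genes before the gap lie below all 5 after it, as the placement of the start requires. Along the segment a running median over 11 genes stayed between 0.41, reached 13.70 Mb after the start, and 0.87, reached at 5.09 Mb. Over the rest of the chromosome the same running median went from -0.23 to 0.34. The last 17.9 Mb of the other chromosomes had medians from 0.09 on chromosome 1 down to -0.09 on chromosome 19, apart from chromosome 3, where the median of 84 genes was -0.44 and 8 were above 0.

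**Figure D2:**
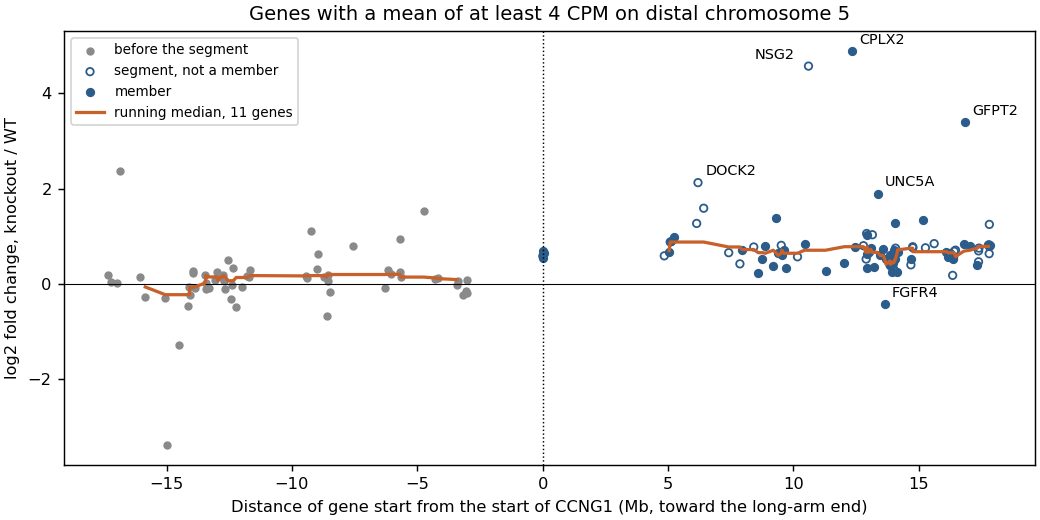
Log2 fold change (vertical axis) of genes averaging 4 CPM or more against the distance of the gene start from the start of CCNG1 (horizontal axis, Mb), on the last part of chromosome 5, with members filled blue, neighbours open and earlier genes grey. The running median over 11 genes (orange) lies between 0.41 and 0.87 inside the segment, with CPLX2, NSG2, GFPT2, DOCK2 and UNC5A far above it and FGFR4 below 0.

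Each member was then placed against the segment median of 0.67. A member was said to follow when its log2 fold change lay within 0.5 of that median with 2 SE of at most 0.5, and to exceed it or fall short of it when it was further away than both 0.5 and 2 SE. By this rule 46 members followed, with log2 fold changes from 0.23 to 1.03 and a median of 0.61. A further 11 exceeded the common difference, with values from 1.27 to 7.92 and a median of 3.31. Among these 11 are TENM2, HRH2, SNCB, COL23A1 and ADAMTS2, which passed the filter through the knockout libraries alone and so had to be high. The top of the range is the value of ADAMTS2 and the median that of HRH2, so both rest on such genes. FGFR4 fell short, STC2 could not be placed because its error was too wide, and FGF18 was not tested. Just inside the upper edge of the band, at 1.17, lay CLTB at 1.03 ± 0.12, and just outside it PDLIM7 at 1.27 ± 0.09. At the lower edge, 0.17, STK10 lay just inside at 0.23 ± 0.08.

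**Figure D3:**
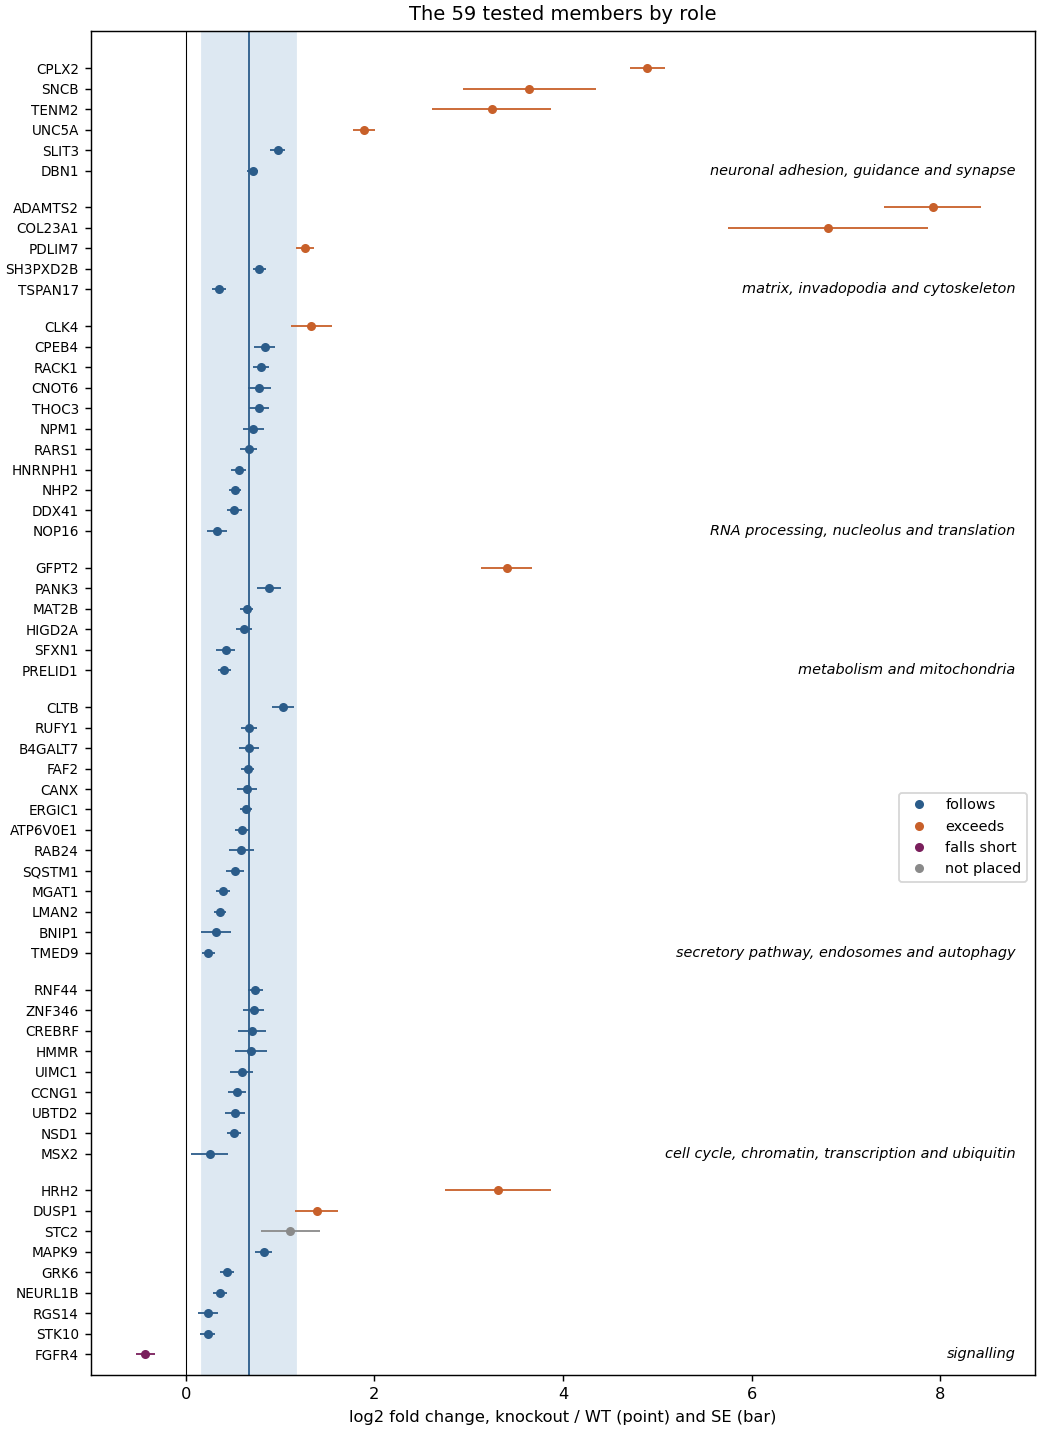
Log2 fold change of the 59 tested members (horizontal axis, point) with its SE (bar), grouped by role, against the segment median of 0.67 (blue line) and the band of 0.5 on either side (shaded). The secretory and cell cycle genes all lie in the band, the neuronal and matrix genes spread furthest to the right, and FGFR4 alone lies below 0.

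Promoter sequences were examined as a feature that the choice of members did not use. RefSeq windows of GRCh38.p14, from 250 bases before to 50 bases after a start, were found for 56 of the 60 members, taking the start nearest that of the most-read transcript. No window was found for TMED9, ERGIC1, ATP6V0E1 and STK10. Below are 5 of them, 5′ to 3′ along the gene: RACK1 as the most abundant follower, FGFR4 as the member in the other direction, and DUSP1, CPLX2 and ADAMTS2 as genes above the band with unlike promoters. Capitals mark 4 motifs searched on both strands: the TATA box as TATAAA, the CAAT box as CCAAT, the GC box as GGGCGG, and the cyclic AMP element as TGACGTCA, which reads the same on both strands. Adjoining matches can share letters. The windows are chr5:181243857-181244156 on the minus strand for RACK1, chr5:177086665-177086964 on the plus strand for FGFR4, chr5:172771146-172771445 on the minus strand for DUSP1, chr5:175796283-175796582 on the plus strand for CPLX2 and chr5:179345412-179345711 on the minus strand for ADAMTS2.
RACK1: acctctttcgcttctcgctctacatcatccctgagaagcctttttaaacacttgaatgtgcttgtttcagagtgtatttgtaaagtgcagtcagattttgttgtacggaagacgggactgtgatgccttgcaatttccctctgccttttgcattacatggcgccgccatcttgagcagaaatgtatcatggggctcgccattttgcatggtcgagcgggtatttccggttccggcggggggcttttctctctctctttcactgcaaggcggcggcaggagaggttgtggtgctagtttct
FGFR4: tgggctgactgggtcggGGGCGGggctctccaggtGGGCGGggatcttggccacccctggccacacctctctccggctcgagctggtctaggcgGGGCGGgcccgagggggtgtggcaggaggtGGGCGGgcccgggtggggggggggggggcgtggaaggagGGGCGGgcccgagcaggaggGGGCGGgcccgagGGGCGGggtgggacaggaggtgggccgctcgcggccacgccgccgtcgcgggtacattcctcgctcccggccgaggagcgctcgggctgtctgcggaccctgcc
DUSP1: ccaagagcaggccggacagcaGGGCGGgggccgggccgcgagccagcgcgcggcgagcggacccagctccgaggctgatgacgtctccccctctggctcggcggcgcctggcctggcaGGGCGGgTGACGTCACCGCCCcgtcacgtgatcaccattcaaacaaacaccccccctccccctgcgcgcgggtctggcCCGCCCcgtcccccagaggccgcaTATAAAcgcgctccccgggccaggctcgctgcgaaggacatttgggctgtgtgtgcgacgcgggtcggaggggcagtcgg
CPLX2: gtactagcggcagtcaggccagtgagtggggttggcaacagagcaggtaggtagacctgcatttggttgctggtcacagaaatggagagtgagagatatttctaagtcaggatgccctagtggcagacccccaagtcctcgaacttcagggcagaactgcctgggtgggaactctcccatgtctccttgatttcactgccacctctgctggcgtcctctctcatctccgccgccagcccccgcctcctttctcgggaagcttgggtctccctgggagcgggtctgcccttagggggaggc
ADAMTS2: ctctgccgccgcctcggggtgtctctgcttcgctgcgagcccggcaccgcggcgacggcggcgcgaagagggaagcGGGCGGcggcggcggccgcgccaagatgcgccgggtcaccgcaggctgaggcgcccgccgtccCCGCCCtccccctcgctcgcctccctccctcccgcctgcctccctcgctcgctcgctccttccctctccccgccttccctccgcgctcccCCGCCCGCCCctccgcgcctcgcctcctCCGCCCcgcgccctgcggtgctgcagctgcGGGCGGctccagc

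The RACK1 and CPLX2 windows held none of the 4 motifs. The RACK1 window is set around a listed start at base 181243906. The most-read RACK1 transcript, with 86.6% of the reads in WT, starts at base 181244209, 303 bases upstream. The whole RACK1 window thus lies after that start and holds no sequence before it. The FGFR4 window held 7 copies of GGGCGG, the ADAMTS2 window 6, and the DUSP1 window 4, beside 1 TATAAA and 1 TGACGTCA. The CPLX2 window is set around a listed start at base 175796533. The upstream transcript with reads in the knockout libraries alone starts at base 175796310, near the first base of the window. Most of the window thus lies after the start of that transcript. The window was poor in CpG, with an observed over expected ratio of 0.31. The ratio was 1.04 for ADAMTS2, 0.89 for DUSP1, 0.76 for RACK1 and 0.70 for FGFR4. Over the 42 followers with a window, GGGCGG was present in 78.6%, CCAAT in 38.1%, TGACGTCA in 2.38% and TATAAA in none. Over the 11 that exceeded the shares were 81.8%, 18.2%, 9.09% and 9.09%, the last 2 being DUSP1 alone. Over all 35116 windows of the reference they were 45.0%, 34.6%, 1.85% and 11.5%, in the same order. The median CpG ratio was 0.87 in followers, 0.89 in those that exceeded and 0.58 overall. The reference counts every listed start, of expressed and silent genes alike, while the classes count 1 window per gene, so the shares are not of like sets, and no difference was tested. For CPLX2, TENM2 and HRH2 above the band, and for the followers RGS14 and RUFY1, the nearest window lies 9173 bases (RUFY1) to 74965 bases (CPLX2) from the start of the most-read transcript. A match is a description of letters, not a binding site.

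The 11 genes of RNA processing, nucleolus and translation were all called higher. Of these 10 followed, and the median log2 fold change of the 11 was 0.72. RACK1, a scaffold on the small ribosomal subunit, had the highest level per length of the 60, at 1553 TPM in WT. It measured 1059.5, 964 and 978 CPM in WT and 1938.2, 1537.4 and 1742.5 CPM in the knockout, a log2 fold change of 0.80 ± 0.08. The lowest knockout library thus lay well above the highest WT library. NPM1, the nucleolar chaperone of ribosome assembly, measured 299.6, 328 and 344 CPM against 446, 635 and 515 CPM (0.72 ± 0.11). HNRNPH1, which binds G-rich RNA in splicing, measured 223, 228 and 237 CPM against 301, 367 and 346 CPM (0.56 ± 0.08). Neither gene overlapped between genotypes. The other 7 that followed were NOP16, DDX41, NHP2, RARS1, THOC3, CNOT6 and CPEB4, with log2 fold changes from 0.33 to 0.84. NOP16 (0.33 ± 0.11) lost its call with library sizes alone, DESeq2 size factors, no filter or transcript sums, and without WT replicate 1 or 2 or knockout replicate 2 or 3. NPM1 and THOC3 have near-identical copies elsewhere in the genome among which reads can be divided, so their values are uncertain.

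CLK4, a kinase of the SR splicing factors, was the member of this group that exceeded the rest. It measured 2.32, 3.30 and 2.05 CPM in WT and 6.67, 6.65 and 5.97 CPM in the knockout, a log2 fold change of 1.33 ± 0.22. No knockout library overlapped a WT library. Its reads were spread over coding and non-coding isoforms, with 42.2% of them in the main coding transcript in WT and 35.4% in the knockout.

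The secretory pathway, endosome and autophagy genes formed the largest group, and all 13 followed. Of these, 12 were called higher, and BNIP1, a SNARE of the endoplasmic reticulum, was not (0.32 ± 0.16, and 0.17 without WT replicate 2, where it fell short). CANX, the lectin chaperone of glycoprotein folding, measured 264, 300.4 and 304 CPM in WT and 387, 529 and 445 CPM in the knockout (0.65 ± 0.11). SQSTM1, the autophagy receptor also known for binding ubiquitinated cargo, measured 151, 144 and 160 CPM against 243, 184 and 226 CPM (0.52 ± 0.10). ERGIC1, a membrane protein cycling between endoplasmic reticulum and Golgi, measured 143, 137 and 140 CPM against 230, 208 and 216 CPM (0.64 ± 0.06). None of the 3 overlapped between genotypes. The rest ran from TMED9, a cargo receptor of the p24 family, at 0.24 ± 0.07, whose call was lost with library sizes alone and without WT replicate 1 or 2 or knockout replicate 3, to CLTB, a clathrin light chain, at 1.03 ± 0.12. Between them lay LMAN2, MGAT1, RAB24, ATP6V0E1, FAF2, B4GALT7 and RUFY1.

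The genes of metabolism and mitochondria were 6, all called higher, and 5 of them followed. PRELID1, which carries phosphatidic acid between the mitochondrial membranes, measured 183, 181 and 199.97 CPM in WT and 263, 242 and 245 CPM in the knockout (0.41 ± 0.07). PANK3, a pantothenate kinase of coenzyme A synthesis, measured 90.0, 95.1 and 80.4 CPM against 131, 193 and 167 CPM (0.89 ± 0.13). SFXN1, the mitochondrial serine transporter, measured 59.9, 63.7 and 63.4 CPM against 72.8, 95.4 and 82.5 CPM (0.42 ± 0.10). These 3 sat on either side of the segment median, with no overlap between genotypes. MAT2B and HIGD2A lay between them, at 0.65 ± 0.07 and 0.62 ± 0.09.

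GFPT2, the inducible form of the entry enzyme of the hexosamine pathway, stood apart from these. It measured 0.823, 0.457 and 0.818 CPM in WT and 8.91, 6.79 and 6.72 CPM in the knockout, a log2 fold change of 3.40 ± 0.27, from 42 and 460 counts. Nearly all of its reads came from 1 transcript in both genotypes (98.6% in the knockout).

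The cell cycle, chromatin, transcription and ubiquitin genes were 9, and all followed, with a median log2 fold change of 0.59. NSD1, a histone methyltransferase, measured 86.0, 89.4 and 75.1 CPM in WT and 116, 123 and 118 CPM in the knockout (0.51 ± 0.08). CCNG1 measured 65.2, 67.9 and 56.7 CPM against 84.4, 100.1 and 92.5 CPM (0.54 ± 0.09). UBTD2 measured 60.4, 57.5 and 49.0 CPM against 73.2, 89.6 and 76.9 CPM (0.52 ± 0.10). The genotypes were again separate for each. HMMR, UIMC1, CREBRF, ZNF346 and RNF44 had log2 fold changes from 0.59 to 0.74. HMMR lost its call without WT replicate 3, and NSD1 with transcript sums, where its log2 fold change was 0.35. The homeobox gene MSX2 was the one without a call, at 0.25 ± 0.20. Its first WT library, at 5.71 CPM, lay below the other WT libraries at 9.49 and 9.25 CPM, and the knockout libraries, at 10.8, 8.43 and 9.93 CPM, overlapped them. Without that WT library its log2 fold change was 0.05 and it fell short of the common difference.

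Among the 9 signalling genes tested, 6 were called higher, 1 lower and 2 neither way, and the median log2 fold change was 0.44. Those that followed lay in the lower part of the band, apart from the stress kinase MAPK9 at 0.83 ± 0.09. GRK6, a kinase of G protein-coupled receptors, measured 51.7, 51.2 and 48.5 CPM in WT and 69.3, 70.4 and 65.7 CPM in the knockout (0.44 ± 0.07). NEURL1B, a ubiquitin ligase acting on Notch ligands, measured 44.8, 40.5 and 42.0 CPM against 55.8, 53.3 and 54.6 CPM (0.36 ± 0.08). STK10, a serine/threonine kinase, measured 40.1, 38.1 and 36.3 CPM against 45.4, 43.0 and 46.0 CPM (0.23 ± 0.08). STK10 and RGS14, a regulator of G protein signalling at 0.24 ± 0.11, were not called, although in both each knockout library lay above each WT library. Without knockout replicate 1, RGS14 stood at 0.12 and fell short.

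FGFR4, a receptor for fibroblast growth factors at chr5:177086886-177098144, was the one member on the other side of 0. It measured 15.8, 15.7 and 15.8 CPM in WT and 11.9, 11.2 and 12.0 CPM in the knockout, from 945 and 724 counts. Each knockout library lay below each WT library. The log2 fold change was -0.43 ± 0.10, a ratio of 0.742, which puts it 1.10 below the segment median. It was called lower and fell short of the segment median under every alternative setting tried at that threshold, each library left out included. Its 2 most abundant transcripts carried 58.1% and 37.4% of its reads in WT and 55.6% and 32.3% in the knockout. The members on either side of it did not share its direction: ZNF346 stood at 0.72 ± 0.11 and NSD1 at 0.51 ± 0.08. FGF18, a ligand of this receptor family in the same segment, had 11 counts in WT and 46 in the knockout, with 26 of the 46 in 1 library, and was not tested.

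DUSP1 and HRH2 were the signalling genes above the band. DUSP1, an immediate-early phosphatase of MAP kinases, measured 12.3, 14.2 and 16.1 CPM in WT and 24.1, 50.6 and 36.7 CPM in the knockout, a log2 fold change of 1.39 ± 0.23. Its knockout libraries were widely spread, and without knockout replicate 2, the highest, it stood at 1.10 and followed. HRH2, a histamine receptor, measured 0.0484, 0.406 and 0.102 CPM against 2.04, 1.64 and 1.96 CPM, from 11 and 116 counts. The ratio of these counts per scaled library total was 10.2, with an exact 95% interval of 5.50 to 21.0. STC2, a secreted glycoprotein hormone, measured 2.57, 1.07 and 1.64 CPM against 4.12, 3.80 and 3.50 CPM (1.11 ± 0.32) and was not placed. Its value was 1.49 without WT replicate 1, above the band, and 0.85 without WT replicate 2, and its call was lost without WT replicate 2 or 3 or knockout replicate 1 or 3.

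The neuronal adhesion, guidance and synapse genes had the highest median log2 fold change of any role, 2.57 over 6 genes, all called higher. TENM2 and SNCB, which passed the filter through the knockout alone, weigh on that median, and over the 4 that averaged 4 CPM or more it was 1.43. SLIT3 and DBN1 followed, and 4 exceeded the common difference. SLIT3, a secreted guidance ligand, measured 333, 319 and 294 CPM in WT and 674, 566 and 618 CPM in the knockout (0.97 ± 0.08). DBN1, the actin-binding drebrin of dendritic spines, measured 318, 303 and 318 CPM against 516, 506 and 513 CPM (0.71 ± 0.05). Both were abundant in WT, unlike the 4 that exceeded.

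CPLX2, a complexin that clamps and promotes SNARE-driven vesicle release, was nearly silent in WT. It measured 1.50, 0.863 and 1.28 CPM in WT and 31.5, 41.6 and 36.1 CPM in the knockout, from 73 and 2256 counts. The log2 fold change was 4.90 ± 0.19, a ratio of 29.8. The shares of its reads by start site differed as well. The transcript starting at base 175871498 carried 97.3% of the reads in WT and 57.1% in the knockout. A second one, starting 75.2 kb upstream at base 175796310 inside the window printed for CPLX2, was listed at 0 in the 3 WT libraries and at 269, 378 and 316 reads in the knockout libraries. Isoform reads are estimates, since reads in shared exons are divided by a model.

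UNC5A, a netrin receptor at chr5:176810477-176880898, measured 4.99, 4.72 and 4.65 CPM in WT and 17.2, 17.8 and 18.3 CPM in the knockout. The replicates were tight, and the log2 fold change was 1.89 ± 0.12. TENM2, a teneurin of synaptic adhesion, measured 0.145, 0.305 and 0 CPM against 1.48, 1.69 and 1.26 CPM, from 9 and 91 counts, a ratio of 9.80 with an exact 95% interval of 4.94 to 22.1. Its estimated transcript reads were far fewer than these gene counts. They were 0 in WT, and 4.87 and 4.49 for its transcripts with reads in the knockout, so the TENM2 values rest on the gene counts. SNCB, the beta-synuclein of presynaptic terminals, measured 0, 0.203 and 0.0511 CPM against 1.02, 1.54 and 0.793 CPM, from 5 and 69 counts, a ratio of 13.4 with an interval of 5.46 to 42.5. For both genes no WT library reached any knockout library. WT replicate 2 held most of the WT counts of HRH2 and SNCB and the larger part of those of TENM2. Without it the fitted log2 fold changes were 4.54, 5.17 and 4.20, in place of 3.31, 3.64 and 3.24. These intervals cover counting error only.

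The matrix, invadopodia and cytoskeleton genes were 5, all called higher, with 2 following and 3 exceeding. SH3PXD2B, a scaffold protein of podosomes and invadopodia, measured 123, 126 and 127 CPM in WT and 229, 202 and 216 CPM in the knockout (0.78 ± 0.07). TSPAN17, a tetraspanin, measured 95.7, 91.3 and 89.4 CPM against 123, 108 and 121 CPM (0.35 ± 0.07). PDLIM7, an actin-associated PDZ and LIM domain protein, measured 31.1, 34.4 and 37.3 CPM against 89.4, 79.9 and 78.1 CPM (1.27 ± 0.09), the narrowest error among the members above the band.

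ADAMTS2 and COL23A1 had the largest fold changes of the 60. ADAMTS2, the protease that trims fibrillar procollagens, had 1 count in the 3 WT libraries together and 342 in the knockout libraries, at 5.04, 5.49 and 6.02 CPM. The ratio of counts per scaled library total was 331, with an exact 95% interval of 59.1 to 13125, and the fitted log2 fold change was 7.92 ± 0.52. Without WT replicate 1, which held the single count, the fit gave 9.80. Its most-read transcript carried 77.1% of the knockout reads. COL23A1, a transmembrane collagen, had no WT count and 42 knockout counts, at 1.02, 0.530 and 0.513 CPM. Its estimated transcript reads did not match these gene counts. They came to 20, all in knockout replicate 1, with 0 in knockout replicates 2 and 3. By the gene counts, against a floor of 3 counts over the WT group, COL23A1 was at least 13.6-fold higher. The fitted log2 fold change of 6.81 ± 1.06 is no bound. With COL23A1 placed at that bound, the median of its group stays at 1.27 and that of the members above the band at 3.31.

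**Figure D4:**
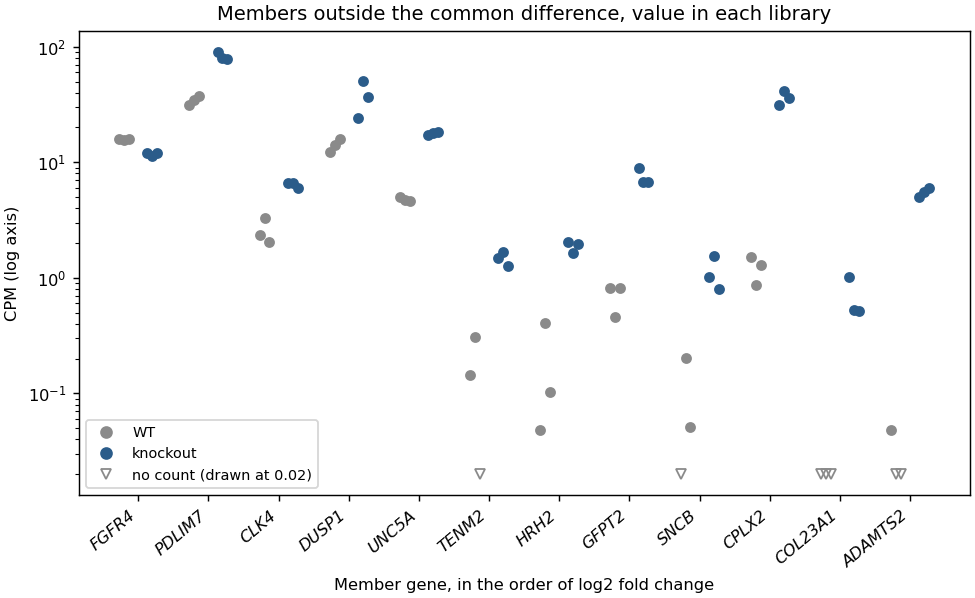
CPM of the 11 members above the band and of FGFR4 in each library (vertical log axis), with WT grey, knockout blue and open triangles for libraries without a count. Each knockout point lies above each WT point for the 11 genes, and FGFR4 shows the reverse, at 15.7 to 15.8 against 11.2 to 12.0 CPM.

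Most of the genes that exceeded had a lower WT level than those that followed. All 46 followers had a WT mean between 5.04 and 1000.6 CPM, while 8 of the 11 that exceeded were under 4 CPM. The rule for following asks for a small error, which few low genes can reach, so part of this split is built in. Of the 9 tested members under 4 CPM in WT, 8 lay above 1.17, against 3 of the 50 at a higher level (6%). Among the neighbours the counts were 10 of 24 (41.7%) and 2 of 35 (5.71%). Outside the segment they were 740 of 4059 (18.2%) and 244 of 12226 (2.0%), so genes of low WT level passed this value more often there as well. The filter favours such genes when they are high in the knockout. Of the 8 members, TENM2, HRH2, SNCB, COL23A1 and ADAMTS2 passed it through the knockout alone, so their place was fixed in advance. Only CLK4, CPLX2 and GFPT2 remain without them. Of these, GFPT2 stood at 0.457 CPM in WT replicate 2, under the filter level of 0.501 CPM, which 3 libraries had to reach. GFPT2 thus also passed with the help of the knockout libraries. The WT level is also the denominator of the fold change, so nothing is read from the difference in shares.

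**Figure D5:**
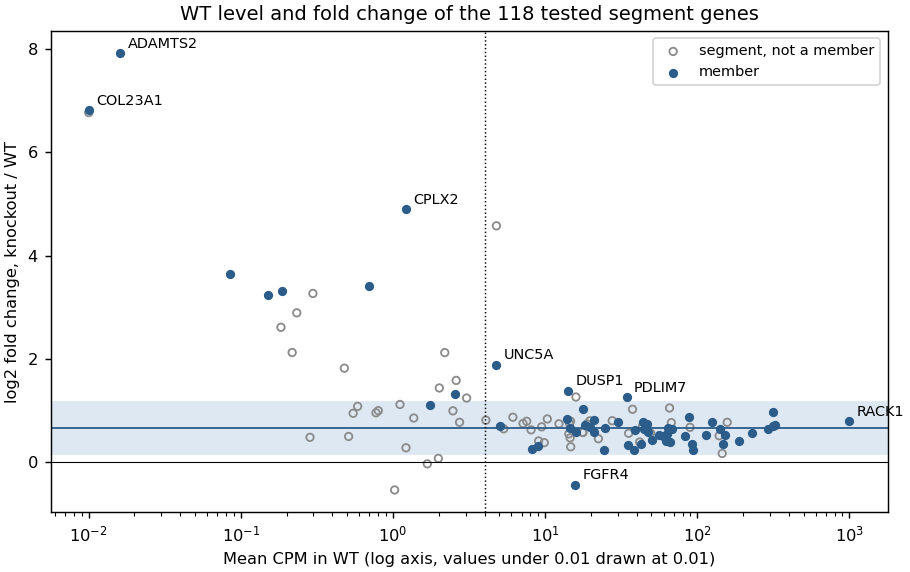
Log2 fold change (vertical axis) against the mean WT level in CPM (horizontal log axis) for the 118 tested segment genes, with members filled, neighbours open, the segment median of 0.67 as a line and the band of 0.5 on either side shaded. To the right of the dotted line at 4 CPM, 46 members lie in the band, UNC5A, DUSP1 and PDLIM7 lie above it, and FGFR4 lies below 0.

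Of the 59 neighbours tested, 45 were called higher and 0 lower, against 14.5% and 11.5% of the 16403 genes tested. Of these neighbours 35 followed, 12 exceeded, 2 fell short and 10 could not be placed. The highest with a mean of at least 4 CPM was NSG2, a neuronal vesicle trafficking protein, at 1.50, 4.01 and 8.85 CPM in WT and 93.4, 134 and 113 CPM in the knockout (4.58 ± 0.38). DOCK2, a Rac exchange factor, came next at 2.12 ± 0.17, then INSYN2B at 1.59 ± 0.42. The lowest were MGAT4B at 0.17 ± 0.08, PRR7 at 0.30 ± 0.11 and MXD3 at 0.38 ± 0.13, so no neighbour at this level stood below 0 as FGFR4 did.

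Positions bear on some of these values. The libraries were made with a stranded kit, but whether the counting used strand is not stated in these sources. In all, 15 members overlap another gene of the table: TENM2, SLIT3, DUSP1, NOP16, HIGD2A, CLTB, UNC5A, ZNF346, RAB24, PRELID1, GRK6, NHP2, SQSTM1, MGAT1 and RACK1. For most of them the partner lies on the opposite strand, and reads of the pair may not have been told apart. For UNC5A the partner HK3 measured 0.169 CPM in WT and 0.421 CPM in the knockout, well below UNC5A. For TENM2 the antisense TENM2-AS1 measured 1.03 and 0.707 CPM, above TENM2 in WT and below it in the knockout. DOCK2 and INSYN2B lie on opposite strands of the same region.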

How the data were processed

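Total RNA depleted of ribosomal RNA was sequenced from 3 WT and 3 DNAJC12 knockout libraries with a stranded kit, per the labels' protocols. Salmon 1.10.0, cutadapt 3.5, DESeq2 1.42.1, FastQC and the build GRCh38.p14 are listed in the submitters' processing notes without their roles. The annotation release and the strand setting of the counting are not given in the sources used here. The deposited gene table holds whole counts per gene, not normalized, and the deposited transcript files hold estimated counts and TPM, per the file headers, with reads divided among similar transcripts before deposit. From the values, 48 of the 60 members equal the rounded sums of their transcripts' estimated counts within 1 read in every library, with transcripts assigned to genes through GENCODE release 29, which also gave positions. TENM2 and COL23A1 are thinly covered by those transcripts, and NSD1 and ERGIC1 only in part. The ERGIC1 transcript with 98.1% of its WT transcript reads held 5515 reads, against 8395 gene counts in WT. For NSD1, the transcripts with 31.6% and 47.3% of its WT transcript reads held 602 and 901 reads, against 5006 gene counts.

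From the 21071 rows, 403 repeats of a gene were removed. The filterByExpr function left 16403 genes, TMM set the scaling, and the genotypes were compared over all 6 libraries with edgeR 4.0.16 in R 4.3.3 (quasi-likelihood F-test, two-sided, Benjamini-Hochberg adjustment over all genes tested, threshold 0.05). The test was tested on simulated data first. Replicates of a genotype differed by more than counting noise (chi-square per gene from 4.22 to 21.0), so no library was a recount of another. Libraries prepared separately from 1 culture could also differ by this much, so the value cannot show separate cultures. One count was worth 0.0457 to 0.0518 CPM. Intervals are exact 95% binomial intervals, and they and the floor of 3 counts cover counting error only. Members, role lists, the segment start and the tests were chosen with earlier results of these data known. Named in full are the members outside the band, the 3 of each role with the highest mean CPM among those that followed, the 5 genes on each side of the boundary, and the 3 highest and 3 lowest neighbours with a mean of at least 4 CPM. Other members stand with single values or ranges. Alternatives were other scalings and filters, DESeq2 1.42.0, limma-voom from limma 3.58.1, a replicate block, transcript sums, protein-coding genes alone, other margins, centres and level minimums, a threshold of 0.01 and each library left out.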

Additional observations from a re-analysis of the deposited data

How the results depend on the processing

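FGFR4 was the 1 member called lower in every setting run at the 0.05 threshold, and 50 to 55 members were called higher in the 17 alternatives. No member changed direction. Of 939 member values under the alternatives, 919 kept their side of the threshold, 18 lost the call (NOP16, TMED9, STC2, HMMR and NSD1) and 2 gained it (STK10). Library sizes alone moved the median of all genes by -0.06 and gave medians of 0.61 for members and 0.61 for segment genes. The segment median was 0.70 from a mean of at least 1 CPM, 0.65 from at least 10 CPM and 0.75 over neighbours alone. With each library left out, the member median ran from 0.64 to 0.68, the segment median from 0.64 to 0.69, and 1 to 2 members fell short and 1 to 2 could not be placed. Without the filter on low counts 2 could not be placed, with FGF18 added. A margin of 0.3 in place of 0.5 left 34 followers, with 10 falling short and 2 not placed. A margin of 0.75 gave 50 followers, 8 above and 0 not placed. At that wider margin CLK4, DUSP1 and PDLIM7, above the band at 0.5, followed, as did STC2. The fitted value of COL23A1 was 6.22 in DESeq2 and 4.75 in limma-voom, and that of ADAMTS2 7.26 in limma-voom. The cause of these shifts was not tested. The replicate numbers share only a number, since same-numbered libraries deviated with correlations of 0.06, -0.03 and -0.07 (pairs 1, 2 and 3), and with a replicate block 54 members were called higher, 1 lower, and the member median was 0.66. Depth limits the 5 tested members with at most 11 WT counts.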
